A study of Mus musculus with 6 samples.

Results

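The genes described here carry the signal of leukaemia inhibitory factor (LIF) from the cell surface to the genome in mouse induced pluripotent stem (iPS) cells. They are the receptor subunit genes Lifr and Il6st, the kinase gene Jak1, the transcription factor gene Stat3, the feedback inhibitor genes Socs3 and Socs2, and the target genes Pim1, Bcl3 and Icam1. All probes whose symbol equals 1 of these 9 genes were taken, which gave 17 of the 45281 probes on the array. Of the 17, 11 were detected on all 6 arrays, 3 on 2 to 5 arrays and 3 on 0 arrays, and 14 probes covering all 9 genes entered the tests.

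LIF binds LIFR, which pairs with gp130, the protein of Il6st, and the paired receptor activates Janus kinases. These phosphorylate STAT3, which moves to the nucleus and switches on genes that keep mouse pluripotent cells undifferentiated. SOCS3 binds gp130 and shuts the signal off, so its gene is both a target and a brake of the pathway. Activation of STAT3 itself is a change of the protein and is not measured by an RNA array.

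The cells were iPS lines null for Nac1, which encodes a BTB-domain protein of the nucleus, and human NAC1 (hNAC1) was used to rescue them. All groups share the Nac1 null genotype, and the labels do not say how or at what level hNAC1 was supplied. Clone 5 and clone 7 were each sampled on day 0, day 2 and day 5 of the rescue, with 1 array per clone and day, 2 arrays per day and 6 in all. No null cells without hNAC1 were sampled over the same days, so rescue and time in culture cannot be told apart. Each clone is a single line with 1 culture a day, so the spread of a probe is the difference between the clones in their response. The fit draws this spread towards that of all probes tested (2 residual and 5.54 prior degrees of freedom). The p-values thus rest largely on the pooled spread and not on independent replicates.

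Between 16739 and 18150 probes were detected on an array, at a detection p-value under 0.05. The labelled cell type was looked at through markers, and all 10 pluripotency genes, among them Pou5f1, Nanog, Sox2 and Zfp42, were detected on all 6 arrays. Of 12 fibroblast markers 7 were detected on 0 arrays, Col1a1, Col1a2 and Col3a1 among them, and 2, Thy1 and Twist1, on all 6. Of 8 markers of blood cells and macrophages 7 were detected on 0 arrays, Ptprc and Lyz2 among them, and 1, Cd68, on all 6. So were 3 of 7 endothelial and 3 of 8 trophectoderm markers. No 2 arrays held the same values, and their log2 signals correlated at 0.96 to 0.99 over the probes tested. Values are log2 signals after background correction and quantile normalisation. A probe passed at a Benjamini-Hochberg adjusted p under 0.05 in limma over all 17471 probes tested, with day and clone in the model, and standard errors (SE) are those of the fit. Fewer cells expressing a gene and less RNA of it per cell cannot be told apart in such bulk samples. The sequences of the probes, and so the transcripts each of them reads, are not used here.

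The promoters of Icam1, Socs3 and Il6st are shown, and Il6st had the largest decrease of the pathway members. Icam1 and Socs3 are STAT3 targets and are also the 2 of 10 member windows that held the STAT motif. They are thus not typical of the targets, since the windows of Pim1 and Bcl3, not shown, held 0 matches. The sequences are from RefSeq on the GRCm38.p6 build and run from 250 bases before to 50 bases after the annotated gene start. Capitals mark the palindromic STAT binding motif, TTCNNNGAA, searched on both strands. The Icam1 window is chr9:21015690-21015989 on the + strand, the Socs3 window chr11:117969317-117969616 on the - strand and the Il6st window chr13:112463820-112464119 on the + strand.
Icam1: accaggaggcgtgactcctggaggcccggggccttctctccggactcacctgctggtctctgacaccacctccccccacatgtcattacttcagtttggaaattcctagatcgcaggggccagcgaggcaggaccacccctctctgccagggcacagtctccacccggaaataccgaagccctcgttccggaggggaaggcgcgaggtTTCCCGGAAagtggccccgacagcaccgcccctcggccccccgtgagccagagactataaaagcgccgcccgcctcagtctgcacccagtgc
Socs3: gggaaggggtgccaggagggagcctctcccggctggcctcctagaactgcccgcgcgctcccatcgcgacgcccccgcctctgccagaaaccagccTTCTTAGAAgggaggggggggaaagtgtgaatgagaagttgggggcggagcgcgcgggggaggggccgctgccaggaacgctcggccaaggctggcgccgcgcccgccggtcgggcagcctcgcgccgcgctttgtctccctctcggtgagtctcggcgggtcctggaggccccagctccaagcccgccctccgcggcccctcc
Il6st: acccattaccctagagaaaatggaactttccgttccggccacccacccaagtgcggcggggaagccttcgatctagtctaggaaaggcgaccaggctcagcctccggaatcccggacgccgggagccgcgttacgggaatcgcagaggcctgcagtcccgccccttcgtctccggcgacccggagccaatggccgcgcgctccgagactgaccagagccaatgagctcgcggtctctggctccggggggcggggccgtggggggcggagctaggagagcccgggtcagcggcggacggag
The motif began 42 bases before the start of Icam1 as TTCCCGGAA and 154 bases before that of Socs3 as TTCTTAGAA. The windows of Il6st, Stat3, Jak1 and Bcl3 and the 2 windows each of Lifr and Pim1 held 0 matches, and Socs2 had no window in the table used. In all, 2 of 10 windows of the members held the motif, beside 8.29% of 32817 promoter windows of the same length. The NF-kB consensus GGGRNNYYCC (R is A or G, Y is C or T, N is any base), searched in the same way, was found in the Bcl3 window only. Of all windows 8.46% held it. NF-kB sites that depart from this pattern were not searched, so a window without a match may still hold one. A match describes these letters and shows no binding.

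On day 5, the receptor gene Il6st and the inhibitor gene Socs2 had fallen in both clones, and these were the only members that passed. Il6st was 2.00-fold lower and Socs2 1.79-fold lower than on day 0. The 14 member probes thus held 2 calls, both lower, where 3.66% of all probes tested were called in this comparison and 1.6% as lower. Of all probes 2.05% were called as higher, and no member was. Icam1 was 1.67-fold higher and did not pass, and Stat3 was lower by all 3 of its probes without passing.

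**Figure D1:**
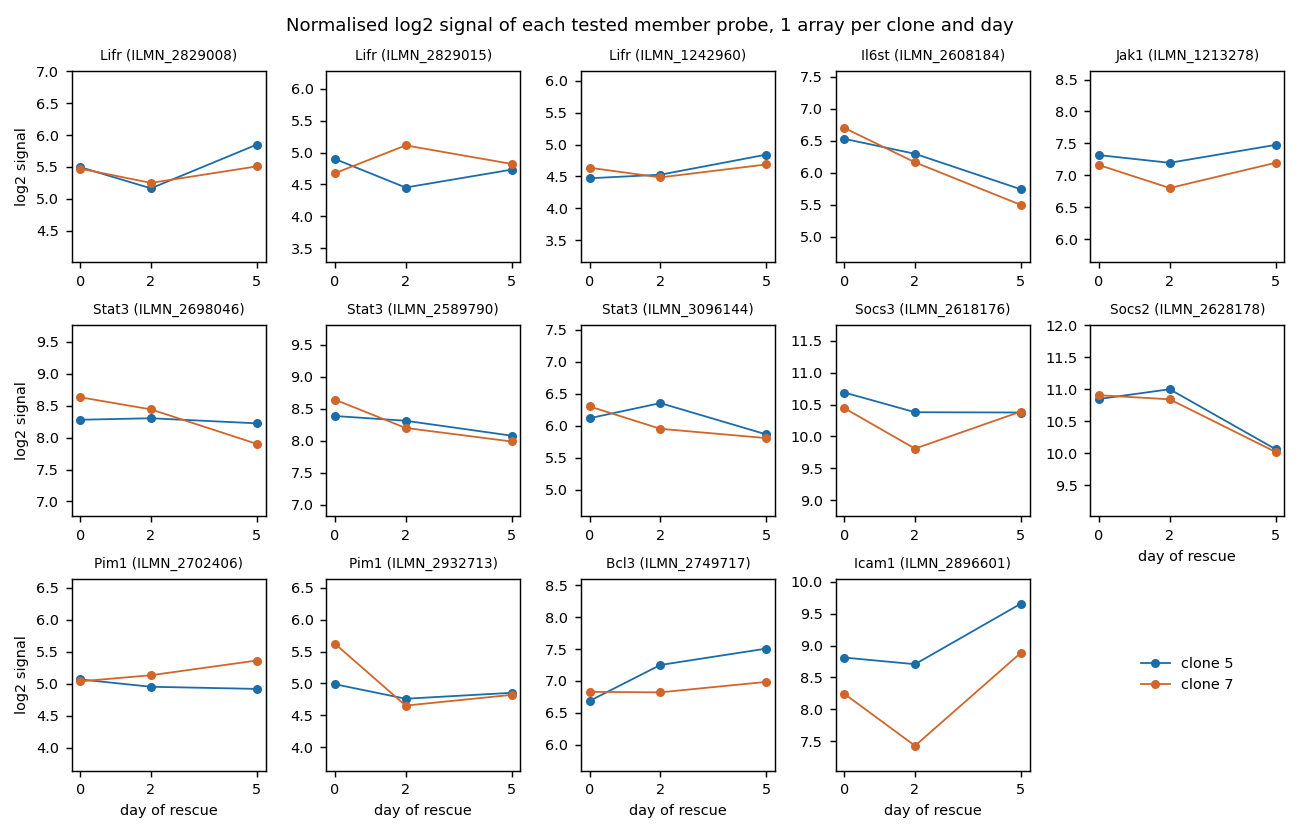
Normalised log2 signal (vertical axes, each spanning the same number of log2 units) against day of rescue for the 14 tested member probes, with 1 point per array and 1 line per clone. Il6st is lower on each later day in both clones, Socs2 is lower on day 5 only, and Icam1 is highest on day 5 in both clones.

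The ligand-binding subunit of the LIF receptor, Lifr, was close to background. Its brightest probe, ILMN_2829008, read a raw signal of 119 in clone 5 and 119 in clone 7 on day 0, 111 and 112 on day 2, and 139 and 120 on day 5, while the median over all probes of an array was 93.4 to 95.9. Clone 5 on day 5 stood above the other 5 arrays, and the values of day 0 and day 5 did not overlap those of day 2 in log2 signal. The log2 change was -0.28 ± 0.18 (SE, n = 2 arrays per day) on day 2 and 0.20 ± 0.18 on day 5 against day 0 (adjusted p = 0.556 and 0.609). Between day 2 and day 5 it was 0.47 ± 0.18, higher in both clones (adjusted p = 0.261). The other Lifr probes were detected on fewer arrays: ILMN_2829015 was detected on 4 arrays and ILMN_1242960 on 2, both of these on day 5. ILMN_1242960, undetected on day 0 and day 2, entered the tests only through day 5, and that choice favours a rise. Its log2 change on day 5 against day 0 was 0.21 ± 0.18 and did not pass (adjusted p = 0.556).

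Il6st encodes gp130, the signalling subunit shared by the receptors for LIF, interleukin 6, oncostatin M and related cytokines. Its detected probe, ILMN_2608184, read log2 signals of 6.53 in clone 5 and 6.70 in clone 7 on day 0, 6.30 and 6.16 on day 2, and 5.74 and 5.50 on day 5. In raw signal these were 164 and 177, 155 and 146, and 135 and 120. The days did not overlap, and both clones were lower on day 2 than on day 0 and lower again on day 5. The log2 change was -0.39 ± 0.18 (SE) on day 2 (adjusted p = 0.415), and on day 5 Il6st fell by 0.997 ± 0.183 (adjusted p = 0.0331), by 0.79 in clone 5 and by 1.20 in clone 7. Day 5 against day 2, the change was -0.61 ± 0.18 (adjusted p = 0.17). The authors' deposited table, which lists 698 probes, holds Il6st as its only probe of these 9 genes, with a log2 change of -1.30 and an unadjusted p of 0.024 on day 5, and of -0.49 and 0.072 on day 2. The second Il6st probe was detected on 0 arrays.

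The decrease of Il6st held its direction in all 17 alternatives, but it passed in only 8 of them. The 8 include the threshold of 0.1, which changes no value. The call was lost without the clone 7 array of day 0 (log2 change -0.82) or of day 5 (-0.87). It was also lost with only the 4 arrays compared (adjusted p = 0.0614), and leaving out either day 2 array gives that same fit. The size was -0.67 with a background offset of 50 and -0.48 without background correction, and neither passed (adjusted p = 0.0572 and 0.0805). Nor did the decrease pass with the authors' series values (0.281) or without the detection filter (0.13).

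Jak1 encodes a kinase that gp130 and LIFR carry. Its detected probe, ILMN_1213278, read log2 signals of 7.32 in clone 5 and 7.16 in clone 7 on day 0, 7.20 and 6.80 on day 2, and 7.48 and 7.20 on day 5. Clone 7 was the lower clone on each day, and the days overlapped. The change on day 5 was 0.10 ± 0.17 (SE), with a 95% interval of -0.30 to 0.50 (adjusted p = 0.799). The other 2 Jak1 probes were detected on 0 arrays.

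Stat3, the transcription factor on which LIF acts, was read by 3 probes. ILMN_2698046 read log2 signals of 8.28 in clone 5 and 8.63 in clone 7 on day 0, 8.30 and 8.44 on day 2, and 8.22 and 7.90 on day 5. ILMN_2589790 read 8.39 and 8.64 on day 0, 8.31 and 8.20 on day 2, and 8.08 and 7.99 on day 5. ILMN_3096144 read 6.12 and 6.30 on day 0, 6.35 and 5.95 on day 2, and 5.86 and 5.81 on day 5. On each probe both day 5 arrays lay below both day 0 arrays, and clone 7 had the larger drop. The day 5 changes were -0.39 ± 0.21, -0.48 ± 0.18 and -0.37 ± 0.20 (SE), and none passed (adjusted p = 0.341, 0.196 and 0.339). The 3 probes read the same RNA extracts and are not separate replicates. On day 2 the changes were -0.08, -0.26 and -0.06, with adjusted p from 0.577 to 0.93, and only ILMN_2589790 was lower in both clones.

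**Figure D2:**
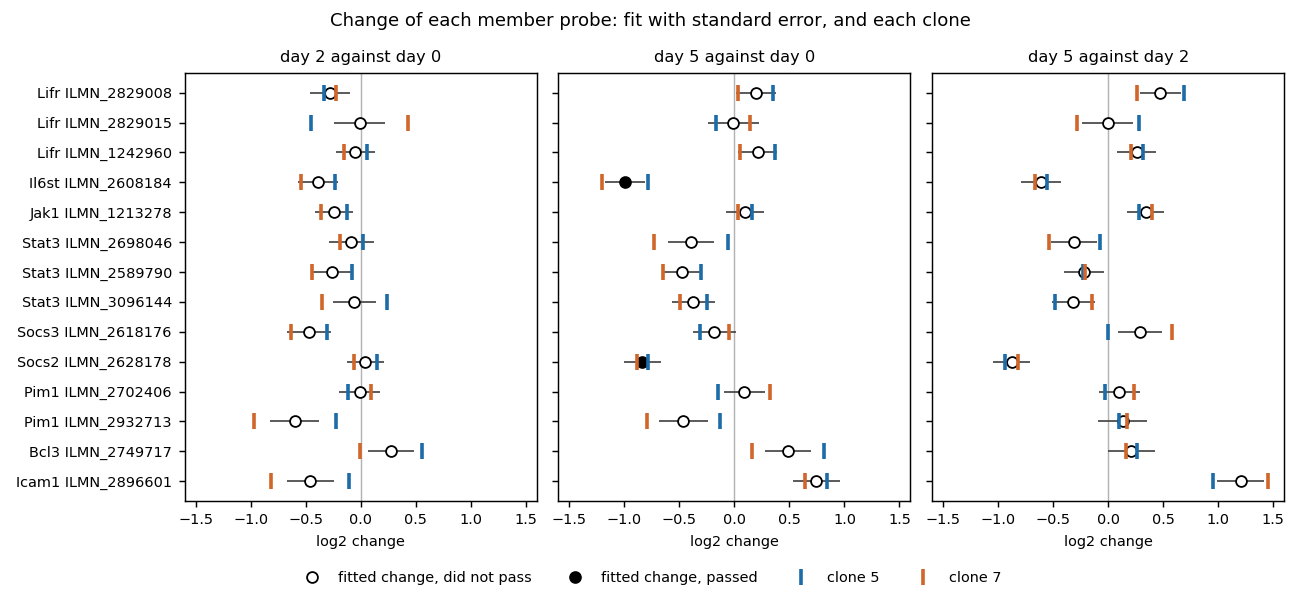
Log2 change of each tested member probe in the 3 comparisons of days, where circles are fitted changes with their SE, filled circles passed, and coloured ticks are the change of each clone. Only Il6st (-0.997) and Socs2 (-0.84) are filled, both for day 5 against day 0, and Icam1 has the largest positive change, 1.20 from day 2 to day 5.

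Socs3, the inhibitor that LIF induces through STAT3, did not pass in any comparison. It read log2 signals of 10.69 in clone 5 and 10.44 in clone 7 on day 0, 10.38 and 9.81 on day 2, and 10.37 and 10.39 on day 5. The day 2 array of clone 7 stood below the other 5 arrays. The change was -0.47 ± 0.20 (SE) on day 2 (adjusted p = 0.366) and -0.18 ± 0.20 on day 5 (adjusted p = 0.659), where the 95% interval ran from -0.64 to 0.28 and so does not show that Socs3 stayed level. Without the day 5 array of clone 5 the day 5 change was 0.03.

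Socs2, a sister inhibitor best known as the brake of growth hormone and STAT5 signalling, set day 5 apart from both earlier days. Its raw signal was 1981 in clone 5 and 1939 in clone 7 on day 0, 2104 and 1892 on day 2, and 1184 and 1068 on day 5. The 4 earlier arrays lay close together, and both day 5 arrays lay well below them, at log2 signals of 10.06 and 10.02 beside a lowest earlier value of 10.84. Socs2 fell by 0.84 ± 0.17 (SE) on day 5 against day 0 (adjusted p = 0.044), by 0.79 in clone 5 and by 0.89 in clone 7. On day 2 the change was 0.04 ± 0.17 (adjusted p = 0.938), and from day 2 to day 5 it was -0.88 ± 0.17, which did not pass (adjusted p = 0.0695). That later change passed with trended and robust shrinkage (0.0245) and with only the 4 arrays compared (0.0284). Leaving out either day 0 array gives that same fit of 4 arrays, and the threshold of 0.1 changes no value. The 5 of 17 alternatives in which it passed are therefore not separate results. The day 5 call against day 0 lay close to the threshold and was lost when any 1 array was left out, while its size stayed between -0.92 and -0.76. Leaving out either day 2 array is here the same fit as that of only the 4 arrays compared (adjusted p = 0.0953). The adjusted p was 0.0585 without clone in the model, 0.318 with the authors' series values and 0.107 without the detection filter. The day 5 call against day 0 passed in 7 of the 17 alternatives, the threshold of 0.1 among them.

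Pim1, a survival kinase gene induced by STAT3, was near background on both of its probes. ILMN_2702406 read raw signals of 105 to 116 on the 6 arrays, with no day apart from the others, and its day 5 change was 0.09 ± 0.19 (SE, adjusted p = 0.841). ILMN_2932713 read 124 in clone 7 on day 0 and 99.1 to 107 on the other 5 arrays, so its changes of -0.60 ± 0.22 on day 2 and -0.47 ± 0.22 on day 5 (adjusted p = 0.331 and 0.292) were larger in clone 7, at -0.97 and -0.80, than in clone 5, at -0.23 and -0.13. The probes did not show the same course.

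Bcl3, which encodes an atypical IkB protein that works with NF-kB subunits in the nucleus, read log2 signals of 6.69 in clone 5 and 6.83 in clone 7 on day 0, 7.25 and 6.82 on day 2, and 7.51 and 6.99 on day 5. Both day 5 arrays lay above both day 0 arrays. The difference was mostly that of clone 5, at 0.82 on day 5 and 0.56 on day 2, beside 0.16 and -0.01 in clone 7. The mean change of 0.49 ± 0.21 (SE) on day 5 did not pass (adjusted p = 0.252), nor did 0.28 ± 0.21 on day 2 (adjusted p = 0.608).

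Icam1 encodes an adhesion molecule of the immunoglobulin family that STAT and NF-kB factors control in many cell types. Its raw signal was 511 in clone 5 and 369 in clone 7 on day 0, 505 and 251 on day 2, and 925 and 525 on day 5. In log2 signal these were 8.81 and 8.24, 8.71 and 7.43, and 9.66 and 8.89. Within each clone day 5 was the highest and day 2 the lowest, and both day 5 arrays lay above the 4 earlier arrays. The change on day 5 against day 0 was 0.74 ± 0.21 (SE), 0.84 in clone 5 and 0.64 in clone 7, and did not pass (adjusted p = 0.109). From day 2 to day 5 it was 1.20 ± 0.21 or 2.30-fold, 0.95 in clone 5 and 1.46 in clone 7 (adjusted p = 0.0595). On day 2 against day 0 it was -0.46 ± 0.21 (adjusted p = 0.409). The comparisons share arrays, so the low day 2 values enter both of the last changes. The change from day 2 to day 5 passed with median scaling (adjusted p = 0.048), with trended and robust shrinkage (0.028) and with only the 4 arrays compared (0.0128). Leaving out either day 0 array gives that same fit of 4 arrays, and the threshold of 0.1 changes no value. The 6 of 17 alternatives in which it passed are therefore not separate results.

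ICAM1 is also a protein of endothelial cells and leukocytes, so markers of these cells were read beside it. Of 7 endothelial markers, 3 were detected on all 6 arrays and 3, Kdr, Cdh5 and Emcn, on 0 arrays. The summed signal above background of the 3 measured ones was 115 to 212 on day 0, 100 to 155 on day 2 and 165 to 232 on day 5. Among them Tek rose by 1.29 on day 5 (adjusted p = 0.0214), and Pecam1 was at -0.17. Of the 8 markers of blood cells, Cd68 alone was measured, with a summed signal of 154 to 192 on day 0, 220 to 221 on day 2 and 320 to 322 on day 5 and a log2 change of 0.79 that did not pass (adjusted p = 0.065). The part of such cells in the Icam1 values was not tested.

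Other cell types were read in the same way beside Il6st and Socs2. The 2 measured fibroblast markers, Thy1 and Twist1, summed to 53.8 to 429 on day 0, 40.3 to 118 on day 2 and 181 to 210 on day 5, with clone 5 on day 0 the highest. Gata6, the 1 measured marker of 8 for primitive endoderm, was undetected on day 0 and rose at least 2.07-fold on day 5 by its bound (adjusted p = 0.0165). It entered the tests only through day 5, the day on which it was high, and that choice favours a rise. The Gata6 signal above background was 2.60 to 5.13 on day 0, 5.06 to 8.99 on day 2 and 39.0 to 39.8 on day 5. Of the other markers, Foxa2 and Afp were detected on 0 arrays, and Sox17, Dab2 and Pdgfra on at most 1. Gata4 was detected on 2 arrays and Sox7 on at most 3. The 3 measured of 8 trophectoderm markers summed to 958 to 1121 on day 0, 872 to 928 on day 2 and 915 to 1453 on day 5, and Cdx2, Eomes, Elf5 and Hand1 were detected on 0 arrays. The part of such cells in the decreases was not tested.

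Day 2 was compared with day 0 to look for early changes, and no member passed in limma, as for all probes tested (0%). At an unadjusted p under 0.05 there were 2 of 14 member probes, those of Socs3 and the dimmer one of Pim1, beside 2339 of 17471 probes. The median log2 change of the member probes was -0.16, with 12 of 14 below 0, beside 0.01 for all probes. From day 2 to day 5 no member passed either, beside 0.693% of all probes (0.515% higher and 0.177% lower), and 4 of 14 member probes had an unadjusted p under 0.05, those of Icam1, Socs2, Il6st and the brightest of Lifr, beside 2940 of 17471. The median of the members was 0.11 in that comparison and -0.10 on day 5 against day 0, beside -0.03 and -0.01 for all probes.

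The last comparison asked whether the null lines themselves differed in these genes, with all days together. Icam1 was lower in clone 7 on day 0, day 2 and day 5, with log2 differences of -0.57, -1.28 and -0.77 and a mean of -0.87 ± 0.17 (SE, n = 3 arrays per clone). It did not pass (adjusted p = 0.167), and neither did any of all probes tested (0%), with 1898 at an unadjusted p under 0.05. Icam1 was the only member with an unadjusted p under 0.05, and the other 13 member probes differed by -0.28 (Jak1) to 0.20 (Pim1, ILMN_2702406).

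The wider pathway was read through 9 lists of other genes, and for each gene the brightest tested probe was used. Of 109 genes 73 were measured, and on day 5 against day 0, 1 of them rose and 6 fell, which is 9.59%, beside 4.1% of 12620 genes read in the same way (2.39% higher and 1.7% lower). Earlier results of these data were known when the lists were written, so this share is a description.

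The cytokines themselves were hardly seen. Of 10 gp130 ligand genes 3 were measured, and Lif (5 probes), Il6, Ctf2, Cntf, Clcf1 and Il27 were detected on 0 arrays. Osm, which encodes oncostatin M, was at -0.98 on day 5 and did not pass (adjusted p = 0.0861). Of 7 other receptor genes of the family 4 were measured and 0 passed. Osmr and Cntfr were detected on 0 arrays.

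Of 9 other JAK and STAT genes 8 were measured and 0 passed in any comparison. Of 15 other negative regulators 13 were measured and 1 fell on day 5. This was Ptprd, a receptor tyrosine phosphatase gene, which fell by 1.33 ± 0.21 (SE, adjusted p = 0.023) and by 1.38 and 1.14 on its other tested probes. Cish, like Socs2 a brake of STAT5, was at -0.77 (adjusted p = 0.0616). The median over the 13 regulators was 0.00, beside -0.00 for all genes.

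Of 20 other genes known as STAT3 or LIF targets 15 were measured, and on day 5 3 fell, 0 rose, and 12 lay below 0. The 3 are naive pluripotency factors, and their decrease was known when the list was written: Gbx2 fell by 2.66 ± 0.39 (SE), Klf5 fell by 1.54 ± 0.17 and Tfcp2l1 fell by 1.05 ± 0.19 (adjusted p = 0.0193, 0.00848 and 0.0295). Klf4, another LIF target of this kind, was at 0.97 and did not pass (adjusted p = 0.123). Pim3, the sister kinase of Pim1, was at -0.23, and the immediate early genes Junb and Fos were at -0.51 and -0.28. The median of the list was -0.23, beside -0.00 for all genes. From day 2 to day 5 Klf5 fell by 1.14 ± 0.17 (adjusted p = 0.042), the only gene of the 9 lists that passed there, beside 0.761% of all genes (0.571% higher and 0.19% lower). It did not pass there without either day 2 array (0.219 and 0.43), without the day 5 array of clone 7 (0.158) or without clone in the model (0.0901). The day 5 call of Tfcp2l1 did not hold without the clone 7 array of day 0 (log2 change -0.85) or of day 5 (-0.96). Nor did it hold without clone in the model (adjusted p = 0.0772). The calls of Gbx2 and Klf5 held when any 1 array was left out. Without background correction those of Gbx2 (adjusted p = 0.0696) and Tfcp2l1 (0.0507) were lost and that of Klf5 held (0.0265).

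**Figure D3:**
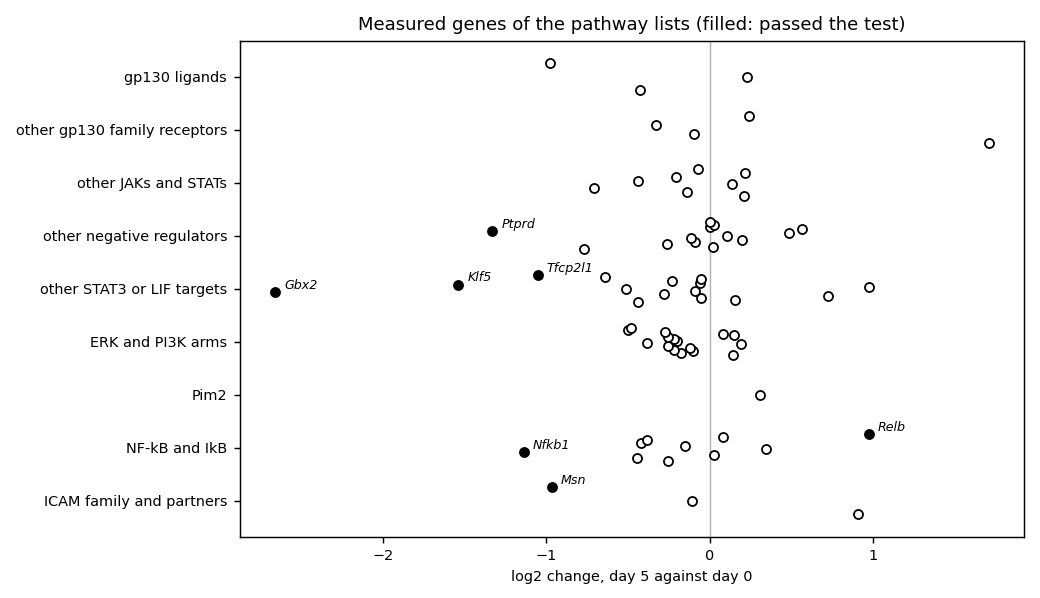
Log2 change on day 5 against day 0 of the 73 measured genes of the 9 pathway lists, 1 point per gene, filled where the gene passed. The 7 filled points are Gbx2, Klf5, Ptprd, Nfkb1, Tfcp2l1 and Msn below 0 and Relb above 0, and the points of the JAK and STAT list and of the ERK and PI3K list are all open.

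LIF also feeds the ERK and PI3K routes, and of 21 genes of these 16 were measured and 0 passed on day 5. Of the 16, 12 lay below 0, with a range of -0.50 (Src) to 0.19. Their median was -0.21, beside -0.00 for all genes. Pim2 was at 0.31 (adjusted p = 0.461). Of 17 genes of NF-kB and its inhibitors, the partners of Bcl3 and regulators of Icam1, 10 were measured. Relb, a subunit of the alternative NF-kB route, rose by 0.98 ± 0.17 (SE, adjusted p = 0.0296), and Nfkb1, the gene of p105 and p50, fell by 1.14 ± 0.18 (adjusted p = 0.0214). The other Nfkb1 probe was at -0.45 and did not pass (adjusted p = 0.274). Rela was at 0.08 and Nfkbia at 0.35, and the target genes Vcam1 and Ccl2 were detected on 0 arrays. Of 9 genes of the ICAM family and its partners 3 were measured. Msn, which encodes moesin, a linker of ICAM proteins to actin, fell by 0.97 ± 0.17 (adjusted p = 0.0296). Another Msn probe was at -0.66 and did not pass (adjusted p = 0.0861). Icam4 was at 0.91 and did not pass (adjusted p = 0.0715). The calls of Relb and Msn were near the threshold: that of Relb was lost in 10 of 16 alternatives, with each left-out array but that of clone 5 on day 0 (adjusted p from 0.0525 to 0.105), and that of Msn in 12 of 16, with each of the 6 arrays left out (0.0509 to 0.0938) and without clone in the model (0.108). Their sizes also moved: the change of Relb was 0.37 without background correction, 0.56 with an offset of 50 and 1.56 with the series values, and that of Msn was -0.35, -0.53 and -1.67. Nfkb1 was lost without the clone 7 array of day 0 (log2 change -0.99) or of day 5 (-1.07). Ptprd held when any 1 array was left out. Without background correction Ptprd was lost (adjusted p = 0.0598) and Nfkb1 held (0.0458).

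In the other comparisons no other gene of the lists passed, and the largest changes reported here were these. On day 2 Gbx2 was at -1.26, Ptprd at -0.72, Msn at -0.68, Osm at -0.55, Relb at 0.55, the kinase gene Jak2 at 0.49 and Pim2 at -0.06, with adjusted p from 0.228 to 0.925. From day 2 to day 5 Gbx2 was at -1.40, Nfkb1 at -0.64, Ptprd at -0.61, Icam4 at 0.53, Tbx3, a naive pluripotency factor gene downstream of PI3K, at -0.44, Osm at -0.43, Pim2 at 0.38 and Stat5a at -0.36, with adjusted p from 0.143 to 0.441. Between the clones Stat4 was furthest apart, at -1.07 in clone 7 against clone 5 (adjusted p = 0.109), and the largest changes of the other lists were those of Gbx2 (-0.70), Pik3r1 (0.56), Ptpn1 (0.54), Msn (-0.41), Osm (0.41), Il6ra (0.38), Pim2 (0.36) and Rela (0.34).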

How the data were processed

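Gene expression of Nac1 null mouse iPS clones was measured on 6 Illumina bead arrays, and samples were grouped by day from the labels. The deposited probe table holds an intensity, the average bead signal, neither normalised nor corrected for background per the file headers, and a detection p-value of each probe. The deposited series values, used as an alternative, are log2 values, and the authors' fold change table, also deposited, holds log2 values and p-values. The software that made them was not given in the sources used.

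With limma 3.58.1 (R 4.3.3), normexp correction from the detection p-values (offset 16) was followed by quantile normalisation and a log2 transform. The 17471 probes kept had a detection p under 0.05 on each array of 1 day or more. A model with day and clone was fitted per probe (lmFit, eBayes, 2 residual and 5.54 prior degrees of freedom). Pairing by clone comes from the labels. Over all tested probes, the clones' departures from day averages had correlations of 0.35 (day 0 with 2), -0.07 (day 0 with 5) and 0.33 (day 2 with 5). The procedure was tested on simulated data. A probe undetected on a day has a bound, taken against the lowest detected value of each array.

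The members, lists and the rule for named genes were chosen with earlier results of these data known. All member probes are accounted for. From each list the passing genes with the largest changes are named, up to 4, or else the gene with the largest change, and other list genes are named after their values were seen. Some genes that the rule names are not reported here. Symbols were matched to older array names through a RefSeq gene table. Precision is limited by the small number of arrays. The 17 alternatives varied the block, background, scaling, source of values, filter, choice of probe, shrinkage, threshold and arrays. They are not separate tests. Leaving out either array of the day not compared gives the same fit as only the 4 arrays compared, and the threshold of 0.1 changes no value.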

Additional observations from a re-analysis of the deposited data

Results flagged for a closer look

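The changes of the clones had opposite signs, by at least 0.1 on the log2 scale in each, for 3 member probes. The difference between the clones was not tested, since each clone has 1 array per day. The dim Lifr probe ILMN_2829015 changed by -0.45 in clone 5 and 0.43 in clone 7 on day 2, by -0.17 and 0.15 on day 5 against day 0, and by 0.28 and -0.29 from day 2 to day 5. It was detected on 4 of 6 arrays. The Stat3 probe ILMN_3096144 changed by 0.24 in clone 5 and -0.35 in clone 7 on day 2, where the Stat3 probe ILMN_2589790 was at -0.07 and -0.44. The Pim1 probe ILMN_2702406 changed by -0.15 in clone 5 and 0.33 in clone 7 on day 5.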

How the results depend on the processing

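Of all probes, 639 passed on day 5 against day 0. Without the replicate block, that is unpaired, 276 passed, of them 1 member probe (Il6st), and 17 from day 2 to day 5 instead of 121. Without background correction 129 passed (57 of them higher, against 359 of 639), with 1 member (Socs2), and 2 from day 2 to day 5. An offset of 50 gave 347 with 1 member (Socs2), and 2. With the series values limma called 0 probes and 0 members on day 5 (2655 and 2 at an unadjusted p under 0.05) and 0 from day 2 (2121), and without the detection filter 0 and 0 (5434 and 4) and 0 (4778). Detection at p under 0.01 on all 6 arrays gave 3 on day 2, 358 on day 5 and 43 from day 2 to day 5. Median scaling gave 3 on day 2 and 216 from day 2 to day 5, with 1 member (Icam1). Trended and robust shrinkage gave 3 on day 2, 291 from day 2 to day 5 with 2 members (Socs2 and Icam1), and 21 between clones. A threshold of 0.1 gave 3, 1264, 478 with 2 members, and 11 between clones. Only the 4 arrays compared gave 5 on day 2, 0 members on day 5 (3 at an unadjusted p under 0.05) and 716 with 2 members from day 2 to day 5.

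Leaving out 1 array gave 0 to 54 calls on day 2, 253 to 908 on day 5 with 0 to 1 members, 0 to 716 from day 2 to day 5 with 0 to 2 members, and 0 to 80 between clones. From day 2 to day 5, 0 passed without clone 7 on day 2 (961 at an unadjusted p under 0.05) and 716 without either day 0 array, and on day 5 253 passed without clone 7 on day 5. Signs turned for small changes. On day 2 Socs2 was at -0.062 with median scaling. The Lifr probe ILMN_2829015 was at 0.0057 on day 2 with an offset of 50, at 0.0080 on day 5 with the series values, and from day 2 to day 5 at 0.33 with these, 0.060 with median scaling and 0.00012 without background correction. With arrays left out its changes ran from -0.37 to 0.36 on day 2, -0.31 to 0.29 on day 5 and -0.37 to 0.36 from day 2 to day 5. Day 2 changes ran from -0.031 to 0.58 for Bcl3, -0.038 to 0.13 for Socs2, -0.18 to 0.084 for the Lifr probe ILMN_1242960, -0.30 to 0.14 and -0.29 to 0.18 for the Stat3 probes ILMN_2698046 and ILMN_3096144, and -0.18 to 0.16 for the Pim1 probe ILMN_2702406. This Pim1 probe ran from -0.10 to 0.27 on day 5 and -0.086 to 0.28 from day 2 to day 5, and ILMN_2932713 from -0.073 to 0.33 from day 2 to day 5. Socs3 on day 5 ran from -0.39 to 0.029. The cause was not tested. Raw signals of Lifr and Pim1 lie near the array median. The SE of their changes between days, 0.18 to 0.23, overlapped those of the other members, 0.17 to 0.21.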

Other observations

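The genes whose log2 signal followed Socs3 most closely over the 6 arrays were Znfx1, Il11ra1, Lrig1 and Ascc1, with a Pearson r of 0.99 each and a Spearman rho from 0.49 to 0.94. Il11ra1 encodes the receptor subunit of interleukin 11, a cytokine that also signals through gp130. Its rho of 0.49 was the lowest among these genes, and its log2 change of -0.31 on day 2 did not pass (adjusted p = 0.508). Those nearest to Icam1 were Kdelr3, Wfdc2, Stk3 and Tbrg1, with r of 0.98 to 0.99 and rho from 0.83 to 1. Among 12620 genes, 43 had an r over 0.95 with Socs3 and 67 with Icam1. The points share arrays, days and clones, and the values are descriptions.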
